A study of Mus musculus with 18 samples.

Results

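The immediate early genes described here were 10 of the 36757 genes counted in this mouse RNA sequencing series, namely *Fos*, *Fosb*, *Jun*, *Junb*, *Egr1*, *Atf3*, *Ier2*, *Klf6*, *Dusp1* and *Zfp36*. They were taken by symbol, with no threshold on their values, and all 10 passed the filter on low counts in every comparison. The series held 18 libraries in 6 groups of 3, from colon of a chronic colitis model, from colon of a colitis-associated cancer (CAC) model and from organoids grown from CAC tumors, each with libraries labelled wild type (RNF138fl/fl mice) and RNF138-/-. Labels gave all mice as C57BL/6, aged 6 to 8 weeks at the start. Colitis mice drank 2% dextran sulfate sodium (DSS) for 7 days and plain water for 14 days, in repeated cycles, and tissue was taken 4 weeks after the last cycle. CAC mice were first injected with the carcinogen azoxymethane (AOM) at 10 mg/kg and then went through DSS cycles of the same length. For the organoids, fragments carrying CAC tumors were digested with collagenase and dispase, and the released cells were grown in matrigel under medium with epidermal growth factor, whereas the colon tissue was frozen without culture, on dry ice by the labels and in liquid nitrogen by the study's methods, after it had been opened, washed and measured. How long the organoids had grown when RNA was made, how many mice they came from, and how the *Rnf138* deletion was made are not given in the sources used here. Nothing in the labels said whether the 3 libraries of a group came from separate mice, so the p-values measure the spread between these libraries, which may be technical.

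Immediate early genes are the first genes switched on when a growth factor, cytokine or stress signal reaches a cell. Their transcription needs no new protein, because the factors that turn them on (serum response factor with its ELK partners, CREB, NF-κB) already wait in the cell and are activated by MAP kinases and related kinases. Most of the products act as transcription factors: FOS, FOSB, JUN and JUNB pair to form AP-1, ATF3 is a stress-induced relative of them, EGR1 and KLF6 are zinc finger factors, and IER2 is a nuclear protein of less defined function. DUSP1 and ZFP36 close the loop, DUSP1 as a phosphatase that switches MAP kinases off and ZFP36 (tristetraprolin) as an RNA-binding protein that speeds the decay of cytokine and immediate early mRNAs. In the intestine these genes respond to wounding, to growth factors and to inflammatory cytokines.

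The promoter windows of 8 members were searched for the sequences through which such signals arrive, in RefSeq sequence of build GRCm38.p6 from 250 bases before to 50 bases after the start of transcription, on both strands. *Fosb* and *Fos* are shown because *Fosb* had the largest differences of the 10 genes and both windows carried a match to the NF-κB site, the pathway the study is about. The *Dusp1* and *Zfp36* stretches are shown because each held the full form of a signal-response site, a cyclic AMP response element (CRE) in *Dusp1* and a CArG box, which serum response factor binds, in *Zfp36*. The stretches are on the gene's own strand from 5′ to 3′, and capitals mark the motif matches. The genes lie at chr7:19302696-19310051 (*Fosb*), chr12:85473890-85477273 (*Fos*), chr17:26505590-26562128 (*Dusp1*) and chr7:28376784-28380253 (*Zfp36*) in GENCODE M21. For *Fosb* the stretch was chr7:19310056-19310295 (minus strand), for *Fos* chr12:85473640-85473879 (plus strand), for *Dusp1* chr17:26508598-26508625 (minus strand) and for *Zfp36* chr7:28379267-28379296 (minus strand).
Fosb: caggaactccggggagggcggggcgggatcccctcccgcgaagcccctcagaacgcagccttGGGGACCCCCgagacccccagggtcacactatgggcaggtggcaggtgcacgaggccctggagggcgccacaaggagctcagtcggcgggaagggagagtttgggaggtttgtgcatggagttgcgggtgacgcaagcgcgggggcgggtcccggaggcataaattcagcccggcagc
Fos: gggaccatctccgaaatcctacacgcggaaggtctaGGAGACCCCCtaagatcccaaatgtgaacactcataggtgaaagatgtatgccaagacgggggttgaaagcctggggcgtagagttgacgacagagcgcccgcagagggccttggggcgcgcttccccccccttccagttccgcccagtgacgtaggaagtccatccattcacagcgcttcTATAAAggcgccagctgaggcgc
Dusp1: gtagggcgggTGACGTCAccgcccggtc
Zfp36: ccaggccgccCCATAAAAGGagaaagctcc

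In *Fosb* the NF-κB match lay at -188 to -179 from the start, and in *Fos* at -214 to -205, both on the opposite strand, and 4.51% of 32851 promoter windows held such a match. *Fos* also had a TATA box, TATAAA, at -33 to -28, a word found in 13.6% of windows and in 2 of the 8 members searched. The CRE, TGACGTCA, of *Dusp1* at -143 to -136 was present in 1.79% of windows and the CArG box of *Zfp36* at -58 to -49 in 1.63%. An AP-1 site, TGACTCA, was in none of the 8 windows and in 5.2% of all, and an EGR site, GCGTGGGCG, was in none of the 8 and in 0.612% of all. None of the motif matches overlapped another. GC content was between 58.7% and 68.3% in the 8 windows, above the 52.7% median of all windows. The *Dusp1* and *Zfp36* stretches lie inside the gene spans given above, which include longer transcripts. These matches describe letters in a window and not bound sites.

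Total counts were between 11514716 and 24390082 per library, and a member had between 45 and 21888 counts in a library. Transcript counts of the targeted gene did not follow the labels. *Rnf138* had 15.96, 18.17 and 25.47 CPM (counts relative to library size, with TMM scaling over the 18 libraries) in wild type colitis and 19.47, 18.14 and 18.67 in colitis libraries labelled RNF138-/-, and in CAC it was higher in the libraries labelled RNF138-/-, at 39.63, 45.32 and 45.34 CPM against 27.99, 27.84 and 21 (log2 fold change 0.72, SE 0.14, edgeR, adjusted p = 0.0426). In the organoids the groups overlapped. Counts per gene do not show which part of the gene was read, so they cannot decide whether the protein was lost. The study describes an immunoblot of wild type and knockout mouse testes with its own antibody. Protein in the samples sequenced here was not tested. The groups are therefore named by their labels throughout. Y-linked transcripts were present in all 12 tissue libraries and in the 3 organoid libraries labelled RNF138-/- (between 114.5 and 280.4 CPM summed) and at 0 in the 3 wild type organoid libraries, so sex and genotype cannot be told apart in the organoids. Of 8 epithelium markers, organoids against CAC tissue had 1 called higher and 3 lower in wild type and 0 higher and 1 lower with the label RNF138-/-. *Epcam* was between 824.2 and 1609 CPM in organoids, but the intestinal factor *Cdx2* was between 2.96 and 14.5 CPM, against 43.1, 92.9 and 234.8 in wild type CAC tissue, between 3.36 and 14.1 in CAC tissue labelled RNF138-/- and between 157.5 and 242.4 in colitis, and the brush border gene *Vil1* between 92.4 and 199.1, against between 306.9 and 1111 in tissue. Organoids had few B cell, T cell or endothelial transcripts (at most 1.66, 10.0 and 9.14 CPM summed over the markers of each), but their 6 fibroblast markers summed to between 8935 and 49520 CPM, against between 922.8 and 1740 in tissue, so they did not read as epithelium alone.

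Within tissue the members spanned a wide range of levels per kilobase of exon. In wild type CAC tissue *Klf6* was highest at 66.7 CPM per kb, followed by *Jun* at 57.2, *Junb* at 41.8, *Ier2* at 33.9, *Fos* at 31.3, *Zfp36* at 22.3, *Atf3* at 20.8, *Dusp1* at 8.59, *Egr1* at 3.79 and *Fosb* at 1.09. The ranges of neighbors in this order overlapped down to *Atf3*, and *Atf3*, *Dusp1*, *Egr1* and *Fosb* were each separated from the next. *Egr1* and *Fosb* were also the lowest in the other 3 tissue groups. In wild type organoids the order was *Jun* at 370.7 CPM per kb, *Klf6*, *Atf3* and *Junb* between 241.9 and 250.9, *Dusp1* and *Ier2* at 106.8 and 102.5, *Fos* at 72.0, *Fosb* at 47.4, *Zfp36* at 45.3 and *Egr1* at 26.4. *Fosb* thus left the last place, and in organoids labelled RNF138-/- it was the fifth, at 109.9 CPM per kb, with a range that overlapped *Dusp1* at 97.8.

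**Figure D1:**
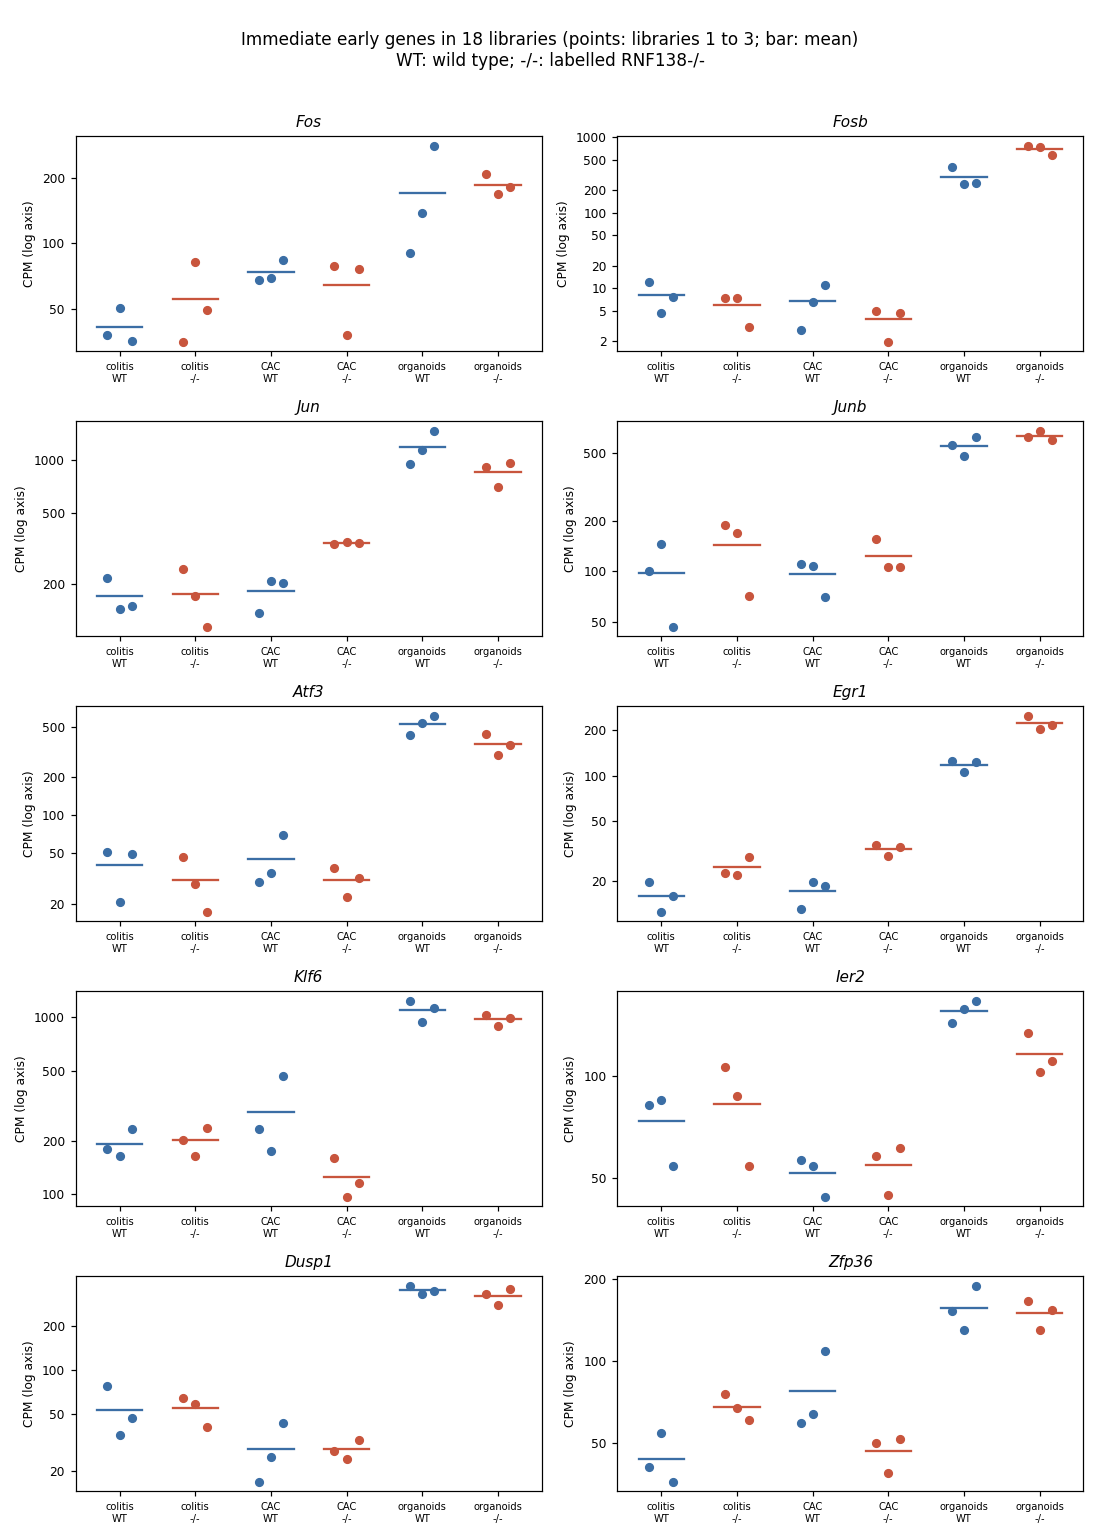
CPM of each member (log axis) in the 18 libraries, by model and labelled genotype, with a point per library and a bar for the mean of 3. All 10 genes sit higher in both organoid groups than in CAC tissue, and *Egr1* sits higher in the libraries labelled RNF138-/- in each of the 3 models.

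Among the comparisons made, these genes differed most between the organoids and CAC tissue, and organoids were not tested against colitis tissue. Y-linked transcripts were absent from the wild type organoid libraries and present in the wild type CAC libraries, so these may not come from the same mice. Whether they shared any mice is not given in the sources used here. All 10 members were higher in organoids in both genotypes, with the 3 organoid libraries above all 3 CAC libraries for every gene. By edgeR, with an adjusted p under 0.05 and a fold of at least 2, the 10 were called higher in wild type, where 17.5% of 19390 genes tested were called higher, and the 10 were called higher in libraries labelled RNF138-/-, where 17.9% were. No member was called lower, by edgeR or by DESeq2 or at an unadjusted p under 0.05, where edgeR called 26.8% of genes lower in wild type and 26.5% with the label RNF138-/-. The share of all genes with organoids above CAC without overlap was 29.1% in wild type and 32.2% in libraries labelled RNF138-/-. The members' median log2 fold change was 2.64 in wild type and 2.58 in libraries labelled RNF138-/-, against a median over all genes of -0.14 and -0.22. In these bulk samples, fewer cells of a type and less RNA per cell cannot be told apart.

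*Fosb*, the AP-1 member that was nearly silent in tissue, differed most. It had 2.81, 6.62 and 10.9 CPM in wild type CAC tissue and 401.9, 241.5 and 244.8 in wild type organoids, a 44.6-fold difference (log2 fold change 5.48, SE 0.54, adjusted p = 7.11e-07). In libraries labelled RNF138-/- it had 5.05, 1.98 and 4.66 CPM in CAC tissue and 758.6, 726.7 and 573.8 in organoids, a 177-fold difference (log2 fold change 7.47, SE 0.58, adjusted p = 6.49e-08). Among 19390 genes it ranked 119 from the highest log2 fold change in wild type and 49 in libraries labelled RNF138-/-. *Fos*, its relative in the same family, had a smaller difference. In wild type, *Fos* had 67.4, 69.5 and 83.8 CPM in CAC tissue and between 90.3 and 280 in organoids (log2 fold change 1.22, SE 0.37, adjusted p = 0.0098), and without wild type organoid library 3, the highest, the value was 0.65 with an adjusted p of 0.106. The *Fos* difference in libraries labelled RNF138-/- was 1.54 (SE 0.37, adjusted p = 0.0023).

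*Jun*, the main dimer partner of FOS, had 137.4, 207.3 and 202.9 CPM in wild type CAC tissue and 946, 1138 and 1463 in wild type organoids, a log2 fold change of 2.72 (SE 0.27, adjusted p = 9.30e-07). With the label RNF138-/-, *Jun* had 335.5, 343 and 338.3 CPM in CAC tissue and 916.9, 702.9 and 967.7 in organoids, a log2 fold change of 1.35 (SE 0.26, adjusted p = 0.000372). *Junb*, which often restrains JUN, was 5.89-fold higher in wild type organoids (log2 fold change 2.56, SE 0.37) and 5.21-fold higher in those labelled RNF138-/- (2.38, SE 0.37). The organoid ranges of *Junb* were between 484.9 and 622 CPM and between 600.2 and 679.9, above tissue values that never passed 188. *Jun* and *Junb* share 5.83% and 5.76% of their 50-base exon windows with an antisense neighbor, *Junos* and *Prdx2*, and *Zfp36* shares 4.21% with *Gm44710*, and since counting by strand is not stated those reads cannot be told apart.

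The stress-induced factor *Atf3* had 29.7, 35.2 and 69.8 CPM in wild type CAC tissue and 428.9, 537 and 608.3 in wild type organoids, an 11.8-fold difference (log2 fold change 3.56, SE 0.43, adjusted p = 5.27e-06). In libraries labelled RNF138-/- the log2 fold change was 3.57 (SE 0.43). *Egr1*, a direct target of the ERK pathway, was 7.05-fold higher in wild type organoids (2.82, SE 0.20, adjusted p = 3.44e-08) and 6.88-fold higher in organoids labelled RNF138-/- (2.78, SE 0.20, adjusted p = 2.76e-08). *Klf6* had 176, 234.3 and 468.6 CPM in wild type CAC tissue and between 940.9 and 1236 in wild type organoids (1.92, SE 0.31). For *Klf6* the difference in libraries labelled RNF138-/- was 2.97 (SE 0.32), from between 97.2 and 161.5 CPM to between 894.9 and 1033.

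*Dusp1*, the MAP kinase phosphatase, was the second most different member in wild type. Its level was 17, 25.2 and 43.1 CPM in wild type CAC tissue and 378.2, 330.9 and 352 in wild type organoids, a 12.6-fold difference (log2 fold change 3.65, SE 0.34, adjusted p = 4.46e-07). In libraries labelled RNF138-/- it was 11.4-fold (3.51, SE 0.34). *Ier2* and *Zfp36* were nearer to the 2-fold threshold. *Ier2* was 3.08-fold higher in wild type organoids (1.62, SE 0.23) and 2.13-fold higher in organoids labelled RNF138-/- (1.09, SE 0.22, adjusted p = 0.000587), and the latter was under 2-fold without CAC library 2 or organoid library 1 of that label (0.95 and 0.97). *Zfp36* was 2.05-fold higher in wild type organoids (1.04, SE 0.24, adjusted p = 0.0013) and under 2-fold without CAC library 1, CAC library 2 or organoid library 3 (0.85, 0.89 and 0.88, with adjusted p at most 0.0083), and it was 3.20-fold higher in organoids labelled RNF138-/- (1.68, SE 0.24).

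**Figure D2:**
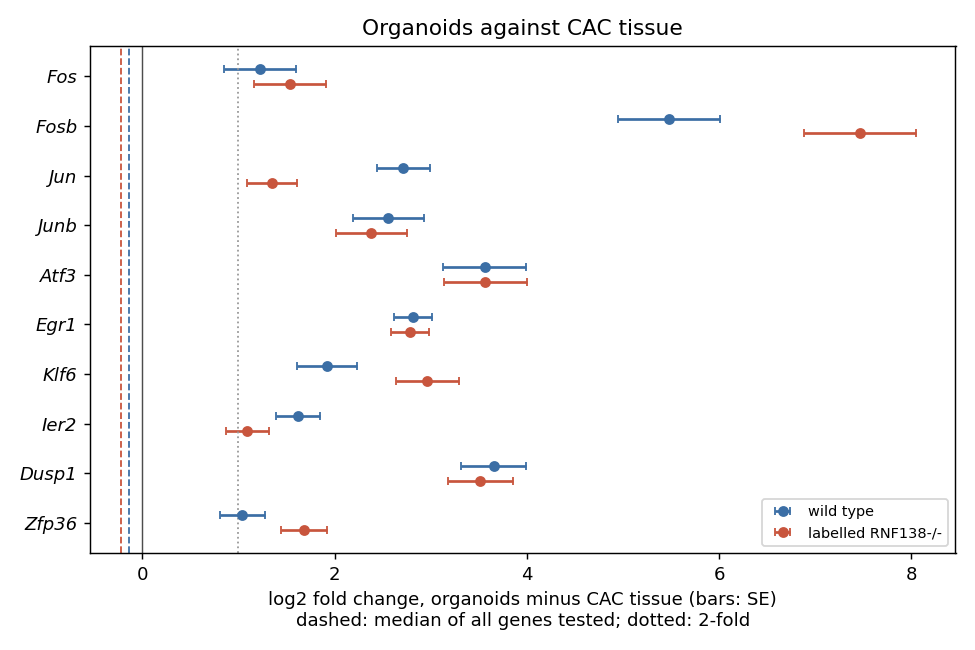
Log2 fold change of each member, organoids minus CAC tissue, in wild type and in libraries labelled RNF138-/-, with the SE as bars, the median of all genes tested as dashed lines and 2-fold as a dotted line. All 20 values lie to the right of the dotted line, from 1.04 for *Zfp36* in wild type to 7.47 for *Fosb* in libraries labelled RNF138-/-.

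Other immediate early genes moved with the members. The lists used here share *Srf*, *Klf2*, *Klf4*, *Klf10* and *Creb1* between a pair of lists each. Of 35 such genes in a list, 28 were called higher and 0 lower in wild type organoids, and 33 were called higher and 0 lower in those labelled RNF138-/-, with median log2 fold changes of 2.71 and 2.68. The largest after *Egr4*, which had no counts in CAC tissue in either genotype, were the orphan nuclear receptors *Nr4a1* (11.2 to 699.6 CPM in wild type, log2 fold change 5.98) and *Nr4a3* (2.01 to 103.2 CPM in wild type, 5.70, and 1.95 to 320.5 with the label RNF138-/-, 7.37). Summed over the 10 members, CAC tissue held between 728.3 and 1121 CPM and organoids between 4187 and 5178, and over the 35 others between 1898 and 3166 and between 9211 and 13260.

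Most of the MAP kinase phosphatases and ERK feedback genes listed were called higher. Of all genes, 17.5% were called higher in wild type and 17.9% with the label RNF138-/-. Of 10 other MAP kinase phosphatases, 6 were called higher and 1 lower in wild type organoids and 7 higher and 1 lower in those labelled RNF138-/-, with *Dusp4* going from 23.3 to 366 CPM in wild type, *Dusp5* from 9.54 to 101.9 and *Dusp10* from 14.4 to 177. Of 10 ERK feedback genes, 7 were called higher and 0 lower in each genotype, among them the receptor tyrosine kinase inhibitors *Spry1* (log2 fold change 2.47 in wild type) and *Errfi1* (1.84). Of 20 MAP kinases and their activators, 0 were called higher and 2 lower in wild type (*Mapk10* -3.81 and *Map2k6* -1.21) and 2 higher and 0 lower with the label RNF138-/- (*Map2k3*, from 59.1 to 167.4 CPM, and *Map2k1*, from 79.7 to 219.7). By the adjusted p alone 2 were higher and 6 lower in wild type and 4 higher and 2 lower with the label RNF138-/-, and the median log2 fold change was 0.18 in each. Among 10 transcription factors upstream, *Srf* rose from 55.5 to 278.9 CPM in wild type (2.35, adjusted p = 9.63e-06) and from 38.2 to 200.9 with the label RNF138-/- (2.40, adjusted p = 7.05e-06). *Creb1* fell by 1.00 and by 1.33 on the log2 scale.

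In the wider families, 11 of 21 other AP-1 and ATF genes were called higher in each genotype, led by *Fosl1* at 4.27 and 4.66, while 4 in wild type and 3 with the label RNF138-/- were called lower, among them *Batf* and *Batf2* in both. Of the 14 other KLF genes tested, 4 were called higher and 1 lower in wild type and 7 higher and 2 lower with the label RNF138-/-, led by *Klf2* at 3.06 and 3.58. ZFP36 relatives and other binders of AU-rich elements were mixed, with 2 of 7 called higher and 1 lower in wild type and 1 higher and 1 lower with the label RNF138-/-, where *Zfp36l1* was higher and *Tia1* lower in both. Heat shock genes, a mark of handling or stress, were called higher in 7 of 14 and lower in 0 in wild type, and higher in 7 and lower in 1 with the label RNF138-/-. The 14 heat shock genes summed to between 3232 and 4017 CPM in wild type CAC tissue and between 6355 and 8067 in wild type organoids, and to between 4768 and 5759 and between 8529 and 10130 with the label RNF138-/-. Of 6 fibroblast markers the sum in wild type went from between 1036 and 1740 CPM to between 8935 and 23060, and with the label RNF138-/- from between 922.8 and 1717 to between 40110 and 49520. The 6 smooth muscle markers went from between 2547 and 8194 CPM to between 262.9 and 1349 in wild type. With the label RNF138-/- they went from between 113.2 and 240 to between 1579 and 1766. The 7 myeloid markers went from between 309.9 and 643.9 to between 22.7 and 32.5, and from between 549.3 and 780.5 to between 100.1 and 151.3. The part of the heat shock genes, of the fibroblast and other cell type transcripts, of the digestion and of the culture medium in the organoid values was not tested. In wild type the organoids also lacked the Y-linked transcripts that the CAC tissue had.

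**Figure D3:**
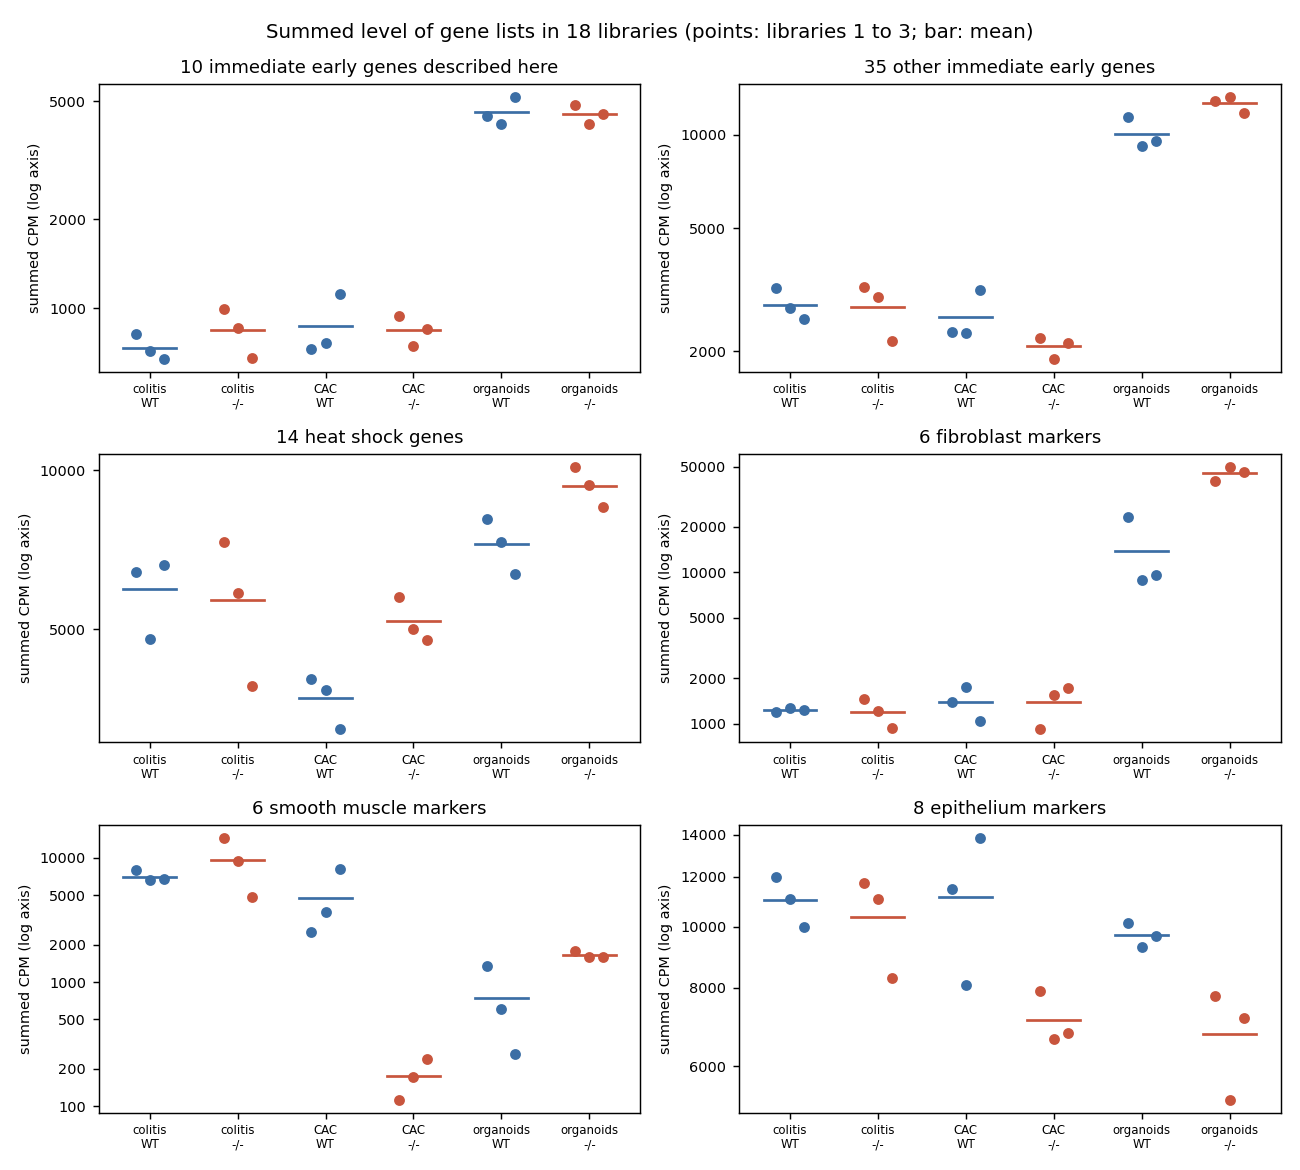
Summed CPM (log axis) of 6 gene lists in the 18 libraries, with a point per library and a bar for the mean of 3. The 10 members and the 35 other immediate early genes separate organoids from tissue, as the 6 fibroblast markers do, whereas the 8 epithelium markers of organoids and CAC tissue overlap in each genotype.

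Between the genotypes few members were called. In colitis, none was called in either direction by edgeR or by DESeq2, where edgeR called 0.018% of 16623 genes higher and 0.0722% lower and DESeq2 called 1.24% of 16599 higher and 0.831% lower. Without adjustment, 2 members had an edgeR p under 0.05, both toward higher values, where 6.08% of all genes were. These were *Zfp36*, with 40.8, 54.5 and 36.1 CPM in wild type and 75.7, 67.0 and 60.7 in libraries labelled RNF138-/- (log2 fold change 0.66, SE 0.20, adjusted p = 0.306), and *Egr1* (0.65, SE 0.23, adjusted p = 0.388). Both were without overlap between the groups, as were 8.04% of all genes in that direction. The 6 T cell markers also summed higher without overlap in colitis libraries labelled RNF138-/-, between 35.4 and 45.2 CPM against between 17.5 and 18.4, with 0 of 6 called by edgeR and a median log2 fold change of 1.29, and their part in these values was not tested. The other 8 had log2 fold changes between -0.45 for *Fosb* and 0.56 for *Junb*, with overlapping groups. Spread within a group was large, as for *Junb* with 101, 145 and 47.0 CPM in wild type colitis.

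In CAC, none of the 10 was called by edgeR, where 0.546% of 17752 genes were called higher and 4.83% lower. These shares, 97 and 857 genes, changed when a library labelled RNF138-/- was left out, to 0 and 0 by edgeR without library 1 or library 2 (829 and 2215, and 562 and 1913, at an unadjusted p under 0.05 with 2-fold) and to 6 and 103 without library 3. They also changed when a wild type library was left out, to 6 and 281 without library 1, 99 and 573 without library 2 and 168 and 968 without library 3. Of the 10, 4 had an unadjusted p under 0.05, 2 higher and 2 lower, where 14.1% of all genes were higher and 19.7% lower by that threshold. *Jun* was higher in the libraries labelled RNF138-/-, at 335.5, 343 and 338.3 CPM against 137.4, 207.3 and 202.9, a log2 fold change of 0.85 (SE 0.20, adjusted p = 0.0561). *Egr1* was 1.85-fold higher (0.88, SE 0.20, adjusted p = 0.0518). For both, DESeq2 gave an adjusted p under the threshold (0.0041 and 0.0039) and a fold under 2, and so did edgeR without wild type CAC library 3 (0.0396 and 0.0450). The 2 genes in the other direction were *Klf6*, at 161.5, 97.2 and 115.8 CPM with the label RNF138-/- against 234.3, 176 and 468.6 in wild type (-1.29, SE 0.42, adjusted p = 0.0926), and *Zfp36*, at 50.1, 38.8 and 51.7 against 59.0, 64.1 and 109.1 (-0.78, SE 0.29, adjusted p = 0.119). DESeq2 called *Klf6* lower (-1.30, adjusted p = 0.0239), where it called 3.15% of 17701 genes higher and 10.8% lower, and 8.23% were higher by its adjusted p alone. The groups of these 4 genes did not overlap, against 22.8% of all genes with higher and 21.8% with lower values.

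Wild type CAC library 3, which had the lowest total count of the series, was the highest of its group in *Klf6*, *Zfp36*, *Atf3*, *Dusp1*, *Fosb* and *Fos*. Without it, the *Klf6* difference was -0.72 (adjusted p = 0.113) and the *Zfp36* difference -0.39 (adjusted p = 0.161). The same library had the most smooth muscle transcripts of its group, 8194 CPM over 6 markers against 2547 and 3657, whereas the libraries labelled RNF138-/- had between 113.2 and 240. All 6 smooth muscle markers and all 6 B and plasma cell markers were called lower in CAC libraries labelled RNF138-/-, with the latter between 123.6 and 215 CPM against between 1497 and 2313. Called lower there were also 2 of 8 epithelium markers (summed between 6630 and 7895 CPM against between 8075 and 13850), 2 of 6 enteric neuron and glia markers and all 3 fat cell markers tested. The part of these cell types in the CAC values of the members was not tested. Heat shock genes summed higher in CAC libraries labelled RNF138-/-, in the values given above, with 0 of 14 called.

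In the organoids, 1 member was called, where 7.94% of 15294 genes were called higher and 7.04% lower. *Fosb* was 2.25-fold higher in organoids labelled RNF138-/- (log2 fold change 1.17, SE 0.22, adjusted p = 0.0062), at 758.6, 726.7 and 573.8 CPM against 401.9, 241.5 and 244.8. The wild type library with the most *Fosb* was also the one with the most fibroblast transcripts, at 23060 CPM over 6 markers against 8935 and 9659, and organoids labelled RNF138-/- had between 40110 and 49520, with 5 of the 6 markers called higher and none of the 6 at 0. Without wild type organoid library 1, the *Fosb* difference was 1.46 (adjusted p = 0.000242). With no scaling beyond library size it was 0.98 (adjusted p = 0.0044), and in a fit of all 18 libraries it was 1.20 with an adjusted p of 0.0710. Sums were also higher in organoids labelled RNF138-/- for 6 smooth muscle markers (between 1579 and 1766 CPM against 1349, 609.7 and 262.9, with 2 called higher) and for 7 myeloid markers (between 100.1 and 151.3 CPM against between 22.7 and 32.5, with 3 of the 5 tested called higher). So were the sums of 14 heat shock genes (between 8529 and 10130 CPM against between 6355 and 8067, with 0 of 13 tested called) and of 6 T cell markers (between 6.47 and 10.0 CPM against between 0.67 and 1.96). The T cell sum was nearly all *Trbc2*, at 10.0, 7.86 and 6.39 CPM against 0.858, 1.72 and 0.535. With the label RNF138-/-, *Cd3d*, *Cd3e* and *Cd8a* were at 0, and *Cd3g* and *Cd4* were at most 0.1055 CPM. The 6 enteric neuron and glia markers summed lower (between 9.47 and 11.2 CPM against between 20.1 and 24.4), and the 8 epithelium markers summed lower, between 5311 and 7759 CPM against between 9300 and 10140, with 2 called lower. Whether *Fosb* follows any of these was not tested.

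*Fosb* and *Egr1* did not overlap between the genotypes, as 28% of genes did not in that direction. Past the adjusted p but under 2-fold, *Egr1* was higher in organoids labelled RNF138-/-, and *Atf3* and *Ier2* were lower, where 17.9% of genes were higher and 17.7% lower by that threshold. *Atf3* had 440.5, 299.1 and 361.3 CPM against 428.9, 537 and 608.3 in wild type (-0.56, SE 0.19, adjusted p = 0.0481), with overlapping groups. *Ier2* had 134.5, 103.2 and 111 CPM against 143.3, 157.9 and 166.9 (-0.47, SE 0.13, adjusted p = 0.0251), without overlap, as in 25.2% of genes in that direction. For *Atf3* and for *Ier2* the adjusted p passed 0.05 when wild type library 2 or 3, or library 2 or 3 labelled RNF138-/-, was left out (between 0.116 and 0.166 for *Atf3* and between 0.0650 and 0.109 for *Ier2*). *Jun*, higher in CAC libraries labelled RNF138-/-, was in the organoids at 916.9, 702.9 and 967.7 CPM against 946, 1138 and 1463 in wild type (-0.50, SE 0.20, adjusted p = 0.0849). *Fos*, *Junb*, *Klf6*, *Dusp1* and *Zfp36* had log2 fold changes between -0.22 and 0.15 with overlapping groups.

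**Figure D4:**
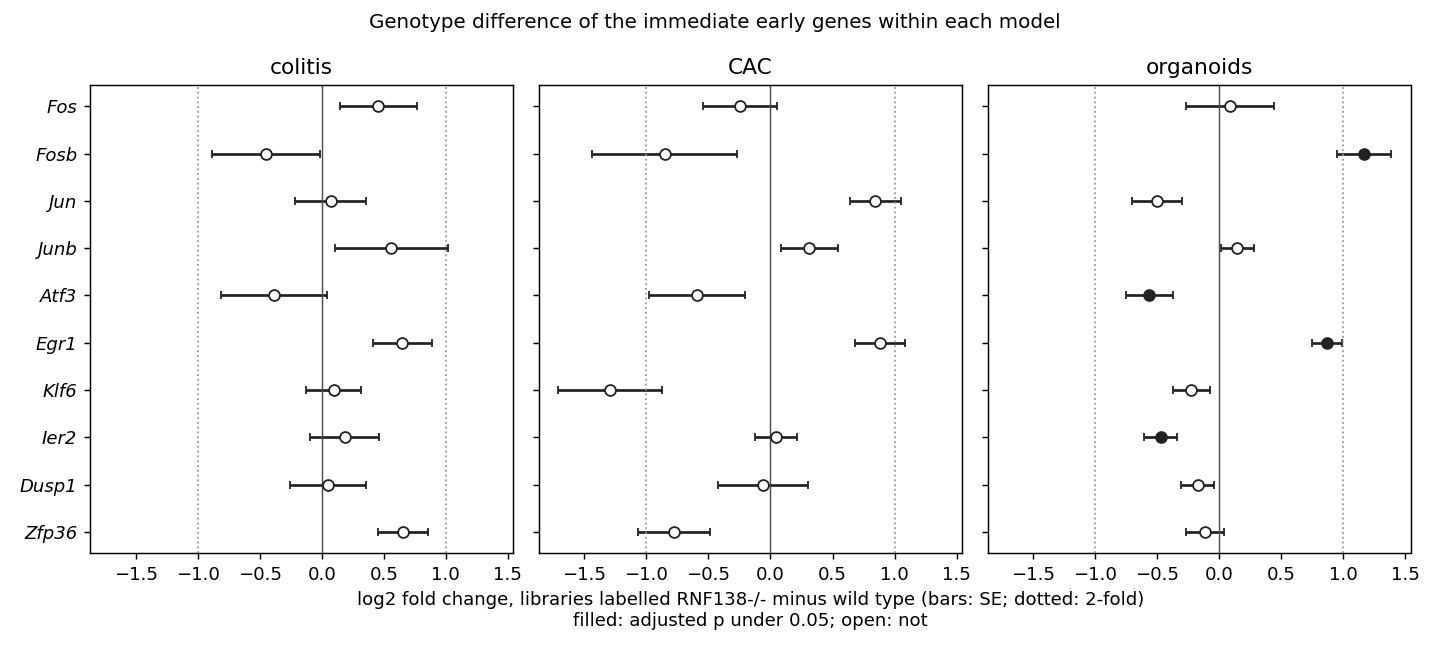
Log2 fold change of each member, libraries labelled RNF138-/- minus wild type, in colitis, CAC and organoids, with the SE as bars, 2-fold as dotted lines and filled points for an adjusted p under 0.05. Filled points are seen in the organoids for *Fosb*, *Egr1*, *Atf3* and *Ier2*, and *Egr1* is on the right in all 3 panels.

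*Egr1*, the zinc finger factor induced through ERK and serum response factor, was the member whose genotype groups were apart in every model. In colitis it had 19.5, 12.5 and 15.9 CPM in wild type and 22.7, 21.9 and 28.9 in libraries labelled RNF138-/-. In CAC the values were 13, 19.6 and 18.4 against 34.4, 29.1 and 33.6. In the organoids they were 125.5, 105.6 and 123.4 against 248.7, 203 and 215.5 (log2 fold change 0.87, SE 0.12, adjusted p = 0.0025). In each model the 3 libraries labelled RNF138-/- were above all 3 wild type libraries, a pattern seen in 0.242% of all genes and in 1 of the 10 members. The folds were 1.57, 1.85 and 1.82, all under 2. A contrast of the mean difference over the 3 models, added after these values were seen, restates that pattern as 1 value and is no independent support for it. It was 0.83 (SE 0.11, adjusted p = 0.000743), and 3.32% of 19390 genes were higher by that threshold. The *Egr1* difference did not itself differ between models by the tests run (CAC minus colitis 0.29, SE 0.27, adjusted p = 0.505, and organoids minus CAC -0.036, SE 0.26, adjusted p = 0.956). The exons of *Egr1* share no 50-base window with another gene. An exact permutation test of 3 libraries against 3, in which the smallest possible two-sided p is 0.1, gave 0.1 in each model.

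Of the 35 other immediate early genes, 0 of 34 tested were called between genotypes in colitis, 0 higher and 1 lower of 34 in CAC, and 7 higher and 0 lower of 35 in the organoids. The other lists had 0 called in colitis. The gene in CAC was *Klf4* (85.8 CPM with the label RNF138-/- against 513.7 in wild type, -2.64, adjusted p = 0.0410), a marker of differentiated surface epithelium that the KLF list also holds. In the organoids they were led by *Nr4a2* (349.3 against 103.3 CPM, 1.71), *Nr4a3* (320.5 against 103.2, 1.59) and the NF-κB regulator *Nfkbiz* (412.2 against 137.6, 1.54). Among the neighbors in the pathway, 1 gene each was called higher in organoids labelled RNF138-/-, and 0 lower, of the MAP kinase phosphatases (*Dusp5*, 1.11), the ERK feedback genes (*Etv4*, 1.32), the upstream factors (*Mkl1*, 1.40) and the ZFP36 relatives (*Zfp36l2*, 1.05). In CAC, *Jund* and *Batf2* of the AP-1 family and *Mapk10* and *Map2k1* of the kinases were called lower. *Egr2*, the closest relative of *Egr1* in the list, was among 3 of the 35 called higher in the mean over the 3 models (1.11, adjusted p = 0.0199), with *Nr4a2* (1.14, adjusted p = 0.0105) and *Socs3* (1.14, adjusted p = 0.0111), and 0 were called lower, where 0.825% of all genes were called higher and 1.27% lower. No member was called in that mean with the fold threshold by edgeR or DESeq2, and the unadjusted edgeR p was under 0.05 for *Egr1* and, toward lower values, for *Klf6* (-0.44, adjusted p = 0.140).

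Between colitis and CAC tissue no member was called. None of the 10 was called in wild type, where 9.78% of genes were called higher and 3.81% lower, and none in libraries labelled RNF138-/-, where 17.5% were called higher and 19.6% lower, by edgeR or by DESeq2. The unadjusted edgeR p was under 0.05 for 4 members in wild type (2 up and 2 down, where 19.3% and 14.5% of all genes were) and for 6 with the label RNF138-/- (2 up and 4 down, where 30.9% and 29.2% were). By the adjusted p alone, 1 member was higher in wild type, where 12.3% of genes were, and 1 higher and 2 lower with the label RNF138-/-, where 27.9% and 26.7% were. DESeq2 gave 1 higher and 1 lower in wild type by its adjusted p, the latter *Dusp1*, where 2749 of 19375 genes were higher and 1855 lower. With the label RNF138-/- it gave 1 higher and 4 lower, with *Klf6* and *Zfp36* beside *Dusp1* and *Ier2*. There 5299 of 19375 genes were higher and 5642 lower. *Zfp36* was higher in wild type CAC tissue, at 59.0, 64.1 and 109.1 CPM against 40.8, 54.5 and 36.1 (0.84, SE 0.24, adjusted p = 0.0195), and lost that side of the threshold without colitis library 1, colitis library 3 or CAC library 3 (0.77, 0.71 and 0.49, with adjusted p between 0.0675 and 0.0919). *Jun* was higher in CAC with the label RNF138-/- (338.9 against 176.1 CPM, 0.95, SE 0.26, adjusted p = 0.0058). *Dusp1* was lower there, at 27.8, 24.2 and 33.0 CPM against 63.8, 58.6 and 40.4 (-0.93, SE 0.31, adjusted p = 0.0179), and had an adjusted p of 0.0639 without colitis library 1 and 0.0673 without CAC library 2. *Ier2* was lower (-0.60, SE 0.22, adjusted p = 0.0317), with an adjusted p of 0.179, 0.0525 and 0.135 without colitis library 1, CAC library 1 or CAC library 2. In wild type, *Dusp1* had 28.5 CPM in CAC against 53.3 in colitis (-0.88, SE 0.31, adjusted p = 0.0552). The wild type comparison and that with the label RNF138-/- share no library.

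Other gene groups also differed between colitis and CAC tissue. Of 14 heat shock genes, 0 were called higher and 4 lower in wild type CAC tissue and 0 higher and 6 lower with the label RNF138-/-, with *Hspa1b* going from 125.6 to 15.9 CPM in wild type (-2.96, adjusted p = 0.0105). The heat shock sum in wild type was between 4794 and 6621 CPM in colitis and between 3232 and 4017 in CAC, and with the label RNF138-/- the groups overlapped, at 7324, 5843 and 3892 CPM in colitis and 5759, 4999 and 4768 in CAC. With the label RNF138-/-, all 6 smooth muscle, all 6 B and plasma cell, all 6 enteric neuron and glia and all 4 fat cell markers tested were also called lower in CAC, with medians of -5.89, -3.68, -3.44 and -5.42, as were 3 of 8 epithelium and 3 of 6 T cell markers, while 3 of 7 myeloid markers were called higher. In wild type, 2 of 4 fat cell markers were called higher and 0 lower (summed between 53.6 and 100.2 CPM against between 23.7 and 36.6), 1 of 6 B and plasma cell markers was called higher, 1 of 7 myeloid markers higher and 1 lower, 1 epithelium and 1 enteric neuron and glia marker lower, and 0 of 6 smooth muscle markers in either direction. The part of these genes and cell types in the values of *Jun*, *Dusp1*, *Ier2* and *Zfp36* was not tested. Of the 35 other immediate early genes, 2 were called higher and 3 lower in wild type, the latter *Nr4a1* (11.2 against 61.2 CPM, -2.43), *Klf2* (10.8 against 44.7 CPM, -2.03) and *Srf* (55.5 against 121.8 CPM, -1.12), and 6 were called higher and 5 lower with the label RNF138-/-. The kinases and activators had 0 of 20 called in wild type, by edgeR, and 0 higher and 3 lower with the label RNF138-/-.

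The genotype difference itself differed between models for 4 members, by the interaction term of the fit of 18 libraries. Between colitis and CAC it moved down for *Klf6* and *Zfp36* and up for none, where 9.37% of genes moved down and 2.57% up. *Zfp36* was at 67.8 CPM in colitis libraries labelled RNF138-/- against 43.8 in wild type, and at 46.9 against 77.4 in CAC. Without wild type CAC library 3, *Klf6* had an adjusted p of 0.146. Between CAC and organoids it moved up for *Fosb* and down for *Jun*, where 11.4% moved up and 7.54% down, so that 1 of 10 in each direction was near the share of all genes. Without wild type CAC library 3, *Fosb* had an adjusted p of 0.109. *Jun* was at 338.9 against 182.6 CPM in CAC and at 862.5 against 1182 CPM in the organoids.

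The genes whose profile over the 18 libraries was most like the mean profile of the members were *Sqstm1*, *Slc25a25*, *Ass1*, *Pim1* and *Errfi1*. Likeness was the root mean square difference of centered log2 CPM, which was between 0.31 and 0.36 for these 5 genes, against a median of 1.51 over 19390 genes. The members themselves were at between 0.45 for *Klf6* and 0.85 for *Ier2*, except *Fosb* at 1.78, farther than the median gene. *Sqstm1*, which encodes the autophagy receptor p62, had mean levels in wild type of 279.8 CPM in colitis tissue, 331.5 in CAC tissue and 1351 in organoids, and of 307.1, 235.1 and 1576 with the label RNF138-/-. *Pim1* belongs to the list of other immediate early genes and *Errfi1* to the ERK feedback genes. The profiles share their libraries and depth, and for all 5 genes both organoid means were above all 4 tissue means.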

How the data were processed

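RNA from colon tissue and organoids was sequenced as paired-end 150-bp reads on an Illumina instrument. Per the labels, the submitters' notes name mouse build mm10, STAR 2.6.1d, HTSeq 0.11.2 and DESeq2, whereas the study's methods name Cufflinks with a Gencode annotation. The deposited table holds whole-number read counts per gene symbol, made by the authors and not normalized. Whether counting used strand is not given in the sources used here. A second deposited table with the authors' own log2 fold changes and p-values was not used.

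Counts were filtered (filterByExpr), scaled by TMM and tested by edgeR 4.0.16 (glmQLFit and glmQLFTest, limma 3.58.1, R 4.3.3) over all genes with Benjamini-Hochberg adjustment. Genotypes were compared within each model (6 libraries), and models, and differences of genotype effects, in a single fit of 18. Calls needed both an adjusted p below 0.05 and at least a 2-fold change, as in the study. CPM used TMM scaling over 18 libraries. Levels per kb used merged exon length from GENCODE M21 (GRCm38), which held 36700 of 36757 genes (99.84%). No library was a copy of another (replicates differed by a chi-square of at least 5.47 per degree of freedom). On simulated counts with 200 genes changed 4-fold, the colitis design recovered 165, the CAC design 126 and the organoid design 192. False calls numbered 8, 12 and 7. The genotype differences of the members were all smaller than 4-fold, and recovery of such smaller changes was not simulated. Replicate numbers were shared between groups. Correlations between same-number libraries were 0.173, 0.0539 and 0.384 in colitis and 0.0347, 0.181 and 0.0611 in CAC. They were -0.118, -0.0396 and 0.0323 in the organoids, and the main fits did not pair the libraries. A replicate block gave 38 genes called higher and 51 lower between genotypes in colitis, instead of 3 and 12. DESeq2 1.42.0, other scalings and filters, a replicate block and leaving out each library were tried as alternatives. The members, the gene lists and the tests were chosen with earlier results of these data known. Genes named outside the members were, by rule, the largest called changes of each list, and the 5 most like genes.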

Additional observations from a re-analysis of the deposited data

Results flagged for a closer look

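For 4 members the difference between libraries labelled RNF138-/- and wild type itself differed between models, by the interaction term of the edgeR fit of all 18 libraries. From colitis to CAC the difference of *Zfp36* moved by -1.38 (SE 0.33, adjusted p = 0.0138), from higher in colitis libraries labelled RNF138-/- to lower in CAC libraries so labelled, and it stayed between -1.60 and -1.02 with any 1 library left out. *Klf6* moved by -1.33 (SE 0.43, adjusted p = 0.0487), and without wild type CAC library 3 by -0.79 (adjusted p = 0.146). From CAC to organoids the difference of *Fosb* moved by 1.99 (SE 0.65, adjusted p = 0.0365), and without wild type CAC library 3 by 1.48 (adjusted p = 0.109). *Jun* moved by -1.37 (SE 0.36, adjusted p = 0.0139), between -1.50 and -1.17 with any 1 library left out. Of all genes, 9.37% moved down from colitis to CAC, and 11.4% moved up and 7.54% down from CAC to organoids, so the single member in each direction of the latter was near the share of all genes. In both comparisons the CAC libraries are shared, and the smooth muscle and B cell transcripts of wild type CAC tissue and the fibroblast transcripts of the organoids moved with the genotype labels. Their part in these 4 results was not tested.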

How the results depend on the processing

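Each member had at least 45 counts in each library, and each group had 3 libraries. Without scaling beyond library size the median log2 fold change of all genes was 0.27 instead of 0.0056 in the CAC genotype comparison (113 genes higher and 600 lower instead of 97 and 857), -0.24 instead of -0.036 in that of organoids (936 and 1654 instead of 1215 and 1077), 0.35 instead of 0.045 in CAC against colitis with the label RNF138-/- (4789 and 2932 instead of 3392 and 3804), and 0.24 instead of -0.0043 and -0.49 instead of -0.039 in the genotype effects of CAC minus colitis and organoids minus CAC (1520 and 3434 instead of 2211 and 1462 in the latter). In organoids against CAC it was -0.30 instead of -0.14 and -0.84 instead of -0.22 (2723 and 5761 instead of 3387 and 5198 in wild type, 2177 and 8153 instead of 3466 and 5138 with the label RNF138-/-).

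Organoids against CAC kept 8 to 10 calls in wild type and 7 to 10 with the label RNF138-/- under all settings. *Zfp36* in wild type was under 2-fold by RLE scaling (1.00), DESeq2 (1.00), no scaling (0.92) and the 6 libraries alone (0.99), and *Fos*, *Jun* and *Ier2* with the label RNF138-/- by no scaling (0.92, 0.73 and 0.47).

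With no scaling, 2 members were called higher between genotypes in CAC (*Jun* 1.13 and *Egr1* 1.16) and 0 in organoids, 1 was called higher in CAC against colitis with the label RNF138-/-, the genotype effect of CAC minus colitis had 1 higher and 1 lower, and that of organoids minus CAC 0 higher. In the fit of 18 libraries 1 was called lower in CAC, as by DESeq2, and 0 higher in organoids. With no fold threshold, calls were 2 higher and 2 lower between genotypes in organoids, 1 higher in CAC against colitis in wild type, 1 higher and 2 lower with the label RNF138-/-, and 1 higher in the mean genotype effect. With a library left out, CAC against colitis had 0 to 1 lower in wild type (1 without colitis 2 or CAC 3), 0 to 1 higher with the label RNF138-/- (1 without colitis 1) and 0 to 1 lower (1 without colitis 3 or CAC 3), and the genotype effect had 1 to 2 lower for CAC minus colitis and 0 to 2 higher for organoids minus CAC. The cause was not tested.

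Genotype differences near 0 changed sign: with no scaling, *Fos* (0.036) and *Dusp1* (0.27) in CAC and *Fos* (-0.15) and *Junb* (-0.062) in organoids, and in the fit of 18 libraries *Dusp1* in CAC (0.0023). With the replicate block, *Dusp1* in CAC was 0.042, and the adjusted p passed 0.05 for *Rnf138* in CAC (0.0624) and in organoids for *Atf3* (0.0915) and *Ier2* (0.0600). With a library left out, the ranges that crossed 0 were in colitis *Jun* -0.22 to 0.29, *Ier2* -0.027 to 0.40, *Klf6* -0.063 to 0.26, *Dusp1* -0.18 to 0.41 and *Rnf138* -0.20 to 0.16, in CAC *Fos* -0.42 to 0.044, *Ier2* -0.029 to 0.19 and *Dusp1* -0.34 to 0.42, and in organoids *Fos* -0.20 to 0.65, *Zfp36* -0.22 to 0.034 and *Rnf138* -0.24 to 0.0030. A fit with the presence of Y-linked transcripts as a covariate could not be made, since presence was the same in all tissue libraries and coincided with the labels in organoids.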
